A study of Mus musculus and Mus musculus x Mus spretus with 8 samples.

Results

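Acetylcholine signalling was described in 8 single cells labelled as glomus cells, the oxygen-sensing cells of the carotid body. The 10 genes described were chosen by name as nicotinic receptor subunits and as the genes that make, carry and break down acetylcholine, and all 10 were among the 24060 gene symbols of the data. The cells were taken from wild-type mouse pups at postnatal days 4 to 5 and had been picked for expression of Th, Uchl1 and Kcnk3. The strain labels differ: cell 2 is labelled C57BL/6 X SPRET/EiJ, a cross between mouse species, and the other 7 are labelled C57BL/6. Each library is 1 cell, so no cell barcodes are shared. The labels name no animal, so the 8 cells count as 1 sample, no comparison carries a p-value, and every value describes these cells alone.

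Acetylcholine is made in cholinergic cells by choline acetyltransferase (Chat), with choline taken up by the high-affinity transporter Slc5a7, and is loaded into vesicles by Slc18a3. It opens nicotinic receptors, rings of subunits that form a cation channel, and is broken down by acetylcholinesterase (Ache). In the neuronal family, alpha subunits such as Chrna3 and Chrna4 assemble with beta subunits (Chrnb2 or Chrnb4), Chrna5 joins as an accessory subunit, and Chrna7 can form a channel by itself. In the carotid body, acetylcholine has long been discussed as a transmitter between glomus cells and the sensory nerve, and glomus cells are known to respond to it.

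The alpha subunits are told from the beta subunits by a pair of adjacent cysteines at the acetylcholine site. In the GENCODE M21 coding sequences the 4 alpha genes each held 1 in-frame pair of adjacent cysteine codons, and Chrnb2 and Chrnb4 held 0. The stretch of 48 coding bases around each pair is shown because it marks the class of subunit on which the results below turn. Each lies within a single coding exon of mm10. The capitals mark the cysteine codons, and each sequence reads in the direction of its gene.
Chrna3, chr9:55015833-55015880, minus strand: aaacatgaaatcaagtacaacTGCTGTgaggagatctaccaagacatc
Chrna4, chr2:181029257-181029304, minus strand: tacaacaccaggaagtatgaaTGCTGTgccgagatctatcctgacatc
Chrna5, chr9:55004596-55004643, plus strand: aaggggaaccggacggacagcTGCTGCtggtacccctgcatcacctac
Chrna7, chr7:63106137-63106184, minus strand: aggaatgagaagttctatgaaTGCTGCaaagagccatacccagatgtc

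Levels are the deposited RPM, reads of a gene per 1000000 reads of the cell, and a gene was called detected at 1 RPM or more. The cells held 3960200 to 30218206 reads, the most in cell 2, and 4040 to 6956 detected genes. A count of 0 reads allows up to 3 reads, which is 0.0993 to 0.758 RPM depending on the cell. This limit and the intervals below cover counting error only, since amplified reads are not independent molecules. Cell 4 stood apart: the summed level of 9 glomus cell markers was 6359 RPM there against 18150 to 27410 RPM in the others, and that of 7 markers of autonomic ganglion neurons was 10990 RPM against 92.3 to 3642 RPM. All 7 ganglion markers were detected in cell 4 and at most 4 in any other cell. Markers of endothelium and blood were at 0 in every cell. Summed markers of glia reached 153.5 RPM in cell 8, those of smooth muscle and pericytes 354.7 RPM in cell 3 and those of fibroblasts 184.5 RPM in cell 6. Results that rest on cell 4 are given with and without it, and the part of its other markers in them was not tested.

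Of the 10 genes, Chrna3, Chrnb2 and Ache, 3 in all, passed the detection limit in 6 or more cells. Chrna4, Chrna5, Chrna7 and Chrnb4 passed it in 1 to 3 cells, and Chat, Slc18a3 and Slc5a7 in no cell. Among all symbols 14.2% passed it in 6 or more cells and 55.2% in no cell. With the limit at 10 RPM, 2 members, Chrna3 and Ache, passed in 6 or more cells, against 9.86% of all symbols. Without cell 4, 2 members were detected in at least 6 of the 7 cells, against 11.1% of all symbols, and the member lost was Chrnb2. Without cell 2, 1 member, Chrna3, was, because Chrnb2 and Ache were each detected in exactly 6 cells, cell 2 among them. The share of all symbols was not counted for this case. Asking for at least 5 of the 7 cells gave 3 members whichever cell was left out. That outcome was fixed beforehand, since a gene detected in 6 or more cells keeps at least 5 when any 1 is left out. The other members, detected in 3 cells or fewer, could not reach 5, so this count tests nothing. Of the 7 members detected in any cell, Chrna4, Chrnb2 and Chrnb4, 3 in all, had their highest level in cell 4, where 14.0% of all genes detected in any cell did.

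**Figure D1:**
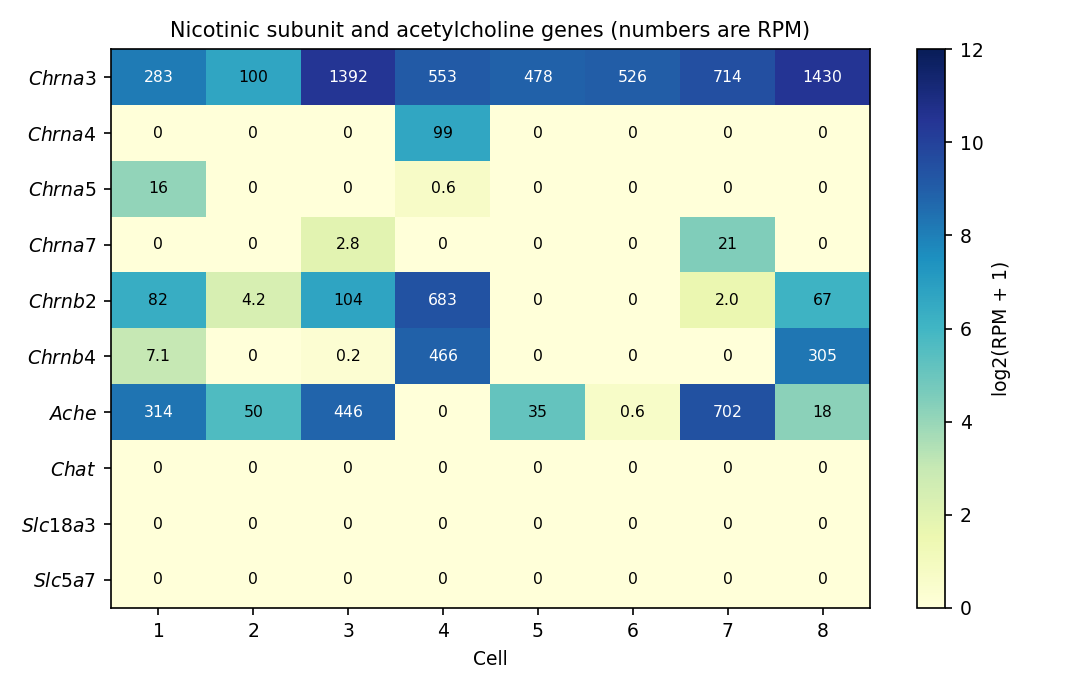
Level of each of the 10 genes (vertical axis) in each of the 8 cells (horizontal axis). Colour is log2(RPM + 1) and the printed numbers are RPM. Chrna3 is above 0 in every cell, and the bottom 3 genes are at 0 in every cell.

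Chrna3, the alpha subunit of the receptor typical of autonomic ganglia, was the member present throughout. It stood at 283, 100.1, 1392, 553, 478, 526, 714 and 1430 RPM in cells 1 to 8. The lowest value was in cell 2, the C57BL/6 X SPRET/EiJ cell, and the highest were in cells 3 and 8. In cell 2 the counting interval was 96.5 to 104 RPM (exact Poisson, 95%), well below every other cell. The median was 540 RPM (SD 1.24 on the log2 scale, n = 8 cells), and 526 RPM without cell 4. It was the 41st highest of 6699 detected genes in cell 8 and rank 2505 of 5604 in cell 2. Of all symbols, 4.88% were detected in all 8 cells as Chrna3 was. The SD of Chrna3 over cells can be set beside a median of 2.77 log2 units over the 3422 genes detected in at least 6 cells, of which 10.9% had a smaller SD. Over the 1173 genes detected in all 8 cells the median SD was 1.63, and 30.9% of them had a smaller SD. Without cell 2 the SD of Chrna3 was 0.845.

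The other alpha subunits were each detected in 1 or 2 of the 8 cells. Chrna4, the alpha subunit of the main high-affinity brain receptor, had 491 reads in cell 4, or 99.3 RPM (interval 90.7 to 108), and 0 reads in the other 7 cells. Of all symbols, 1.22% were detected in cell 4 alone. Chrna5, the accessory subunit, had 16.4 RPM in cell 1 (interval 12.7 to 20.9), 3 reads in cell 4 and 0 reads elsewhere. Chrna7, which forms the calcium-permeable homomeric receptor, had 21.0 RPM in cell 7 (interval 17.6 to 24.8), 2.82 RPM in cell 3 (interval 1.58 to 4.66) and 0 reads elsewhere. No 2 of these 3 subunits were detected in the same cell, though the 3 reads of Chrna5 in cell 4 fell in the cell that held Chrna4. With 1 or 2 cells each, little overlap was possible. How often other genes detected in so few cells overlap was not counted.

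Levels of different genes were compared within a cell after division by the length of exon in kilobases (kb). The exons span 5265 bases for Chrna3 and 5022, 3126 and 4505 bases for Chrna4, Chrna5 and Chrna7. On this scale Chrna3 lay above each of the other 3 alpha subunits in 8 of 8 cells. The median difference of log2 levels, with 1 RPM added, was 8.48 from Chrna7 (SD 1.68), 8.90 from Chrna4 (SD 2.63) and 8.22 from Chrna5 (SD 2.15), values that the added 1 RPM limits where the second gene had 0 reads. Where both were counted, Chrna3 exceeded Chrna7 29.1-fold in cell 7 and 422-fold in cell 3, Chrna4 5.31-fold in cell 4 and Chrna5 10.2-fold in cell 1. Where Chrna4 had 0 reads, Chrna3 was at least 356-fold higher in cell 1, the smallest such bound, and at least 3130-fold higher in cell 8, set against 3 reads of Chrna4 in the same cell. For Chrna7 the bounds ran from 320-fold to 2810-fold higher and for Chrna5 from 423-fold to 1950-fold higher.

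Beta subunits varied more. Chrnb2, the beta subunit that pairs with Chrna4 in brain and also with Chrna3, stood at 81.6, 4.20, 104, 683, 0, 0, 2.00 and 67.5 RPM in cells 1 to 8. It was highest in cell 4, at 67.5 to 104 RPM in cells 1, 3 and 8, and at 0 reads in cells 5 and 6. Its median was 35.8 RPM (SD 3.53 log2 units, n = 8 cells). Leaving out cell 1, 3, 4 or 8 gave a median of 4.20 RPM, and leaving out cell 2, 5, 6 or 7 gave 67.5 RPM. Of genes detected in at least 6 cells, 88.8% had a smaller SD. That set was not matched for cells with 0 reads, as 1173 of its 3422 genes were detected in all 8 cells.
The exons of Chrnb2 share 1365 bases, 16.3% of their length, with Adar on the opposite strand, and the strand setting of the counting is not given in the sources used here. Reads of the shared stretch can therefore belong to either gene. Adar, an RNA-editing enzyme, stood at 0, 16.7, 11.5, 184, 0, 1.41, 246 and 0 RPM in cells 1 to 8. In cells 2 and 7 Chrnb2 lay below Adar, so its level there is uncertain, and its detection in 6 cells counts both. In cells 1 and 8 Chrnb2 was detected with 0 reads of Adar.

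Chrnb4, the beta subunit that joins Chrna3 in the ganglionic receptor, was detected in 3 cells. It stood at 466 RPM in cell 4 (interval 448 to 486), 305 RPM in cell 8 (interval 292 to 318) and 7.07 RPM in cell 1 (interval 4.70 to 10.2). Cell 3 held 1 read and cells 2, 5, 6 and 7 held 0. No value lay between 7.07 and 305 RPM. The cells above this gap were cells 4 and 8, and without cell 4 it was cell 8 alone. A stretch covering 4.11% of the Chrnb4 transcript has near-identical copies in transcripts of other genes. For Chrna3, Chrna4, Chrna5, Chrna7, Ache and the 3 genes of synthesis and transport this share was 0%.

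Per kb, Chrnb2 lay above Chrnb4 in 4 of the 6 cells that held more than 3 reads of either, and below it in 2. Without cells 2 and 7, where the Chrnb2 level is uncertain, it was above in 2 cells and below in 2. The median difference was 0.81 log2 units (SD 2.88, range -3.33 to 5.30), with 0.42 when cell 1, 2 or 3 was left out and 1.21 when cell 4, 7 or 8 was. With no division by length Chrnb2 led in 5 of these 6 cells and the median was 1.98. Chrnb4 led by a wide margin in cell 8, where Chrnb2 per kb was 0.0984 of Chrnb4, and Chrnb2 led 5.12-fold in cell 1. In cell 4 the order turned on the scale: Chrnb2 was higher in RPM and Chrnb4 higher per kb, with a ratio of 0.651. No single order of these beta subunits held across the cells.
Against the beta subunits, Chrna3 per kb was above Chrnb2 in 8 of 8 cells and above Chrnb4 in 7 of 8. The log2 differences had medians of 5.00 (SD 3.40) for Chrnb2 and 7.28 (SD 3.67) for Chrnb4. Cell 4 was the exception for Chrnb4, at -0.25, and had the smallest difference from Chrnb2, at 0.37. In RPM with no length the exception in cell 4 was Chrnb2, at -0.30, and Chrna3 was above Chrnb4 in all 8 cells.

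Cells differed in the set of subunits they held together. Cells 1 and 4 held 4 of the 6 subunit genes at 1 RPM or more, cells 3, 7 and 8 held 3, and cell 2 held 2. Cells 5 and 6 held Chrna3 alone. Of all 24060 symbols, 6956, 5604, 5243, 5140, 4040, 4242, 6257 and 6699 were detected in cells 1 to 8. In cells 2 and 7 the subunits held include Chrnb2, whose level there is uncertain because of Adar. Without Chrnb2, cell 2 held Chrna3 alone and cell 7 held Chrna3 and Chrna7. In cells 5 and 6 Chrna3 stood at 478 and 526 RPM with 0 reads of either beta subunit. Against 3 reads of Chrnb2, Chrna3 per kb was at least 1130-fold higher in cell 5 and at least 1970-fold higher in cell 6, and against 3 reads of Chrnb4 at least 504-fold and at least 877-fold higher. These 2 cells also had the fewest detected genes, 4040 and 4242 against 5140 or more in the others, and the part of this in the missing beta subunits was not tested. A transcript can be lost before amplification, so 0 reads do not show that a beta subunit RNA was absent.

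The balance of beta to alpha subunits spanned a wide range in the remaining cells. Summed per kb, Chrnb2 and Chrnb4 came to 0.216 of Chrna3 in cell 1, 0.0264 in cell 2, 0.0472 in cell 3, 1.97 in cell 4, 0.00176 in cell 7 and 0.331 in cell 8. The ratios of cells 2 and 7 rest on Chrnb2 alone, whose level there is uncertain. Cell 4 alone of the 8 held more beta than Chrna3 on this scale, and also in RPM, at a ratio of 2.08. Without cell 4 the highest ratio per kb was that of cell 8, and the highest in RPM was that of cell 1, at 0.313 against 0.260 in cell 8. Chrna3 made up 30.7% of the reads of the 6 subunit genes in cell 4 (exact binomial 95% interval 29.7% to 31.7%), 72.9% in cell 1 (70.6% to 75.1%), 79.3% in cell 8 (78.6% to 80.1%) and 92.9% to 100% in the remaining 5 cells. Per kb the share of Chrna3 was 31.7% in cell 4, 76.1% in cell 1 and 75.1% in cell 8. Cell 4 was lowest on both scales, while the order of cells 1 and 8 turned on the scale. Whether the reads cover whole transcripts is not given in the sources used here, so levels per kb assume even coverage.

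**Figure D2:**
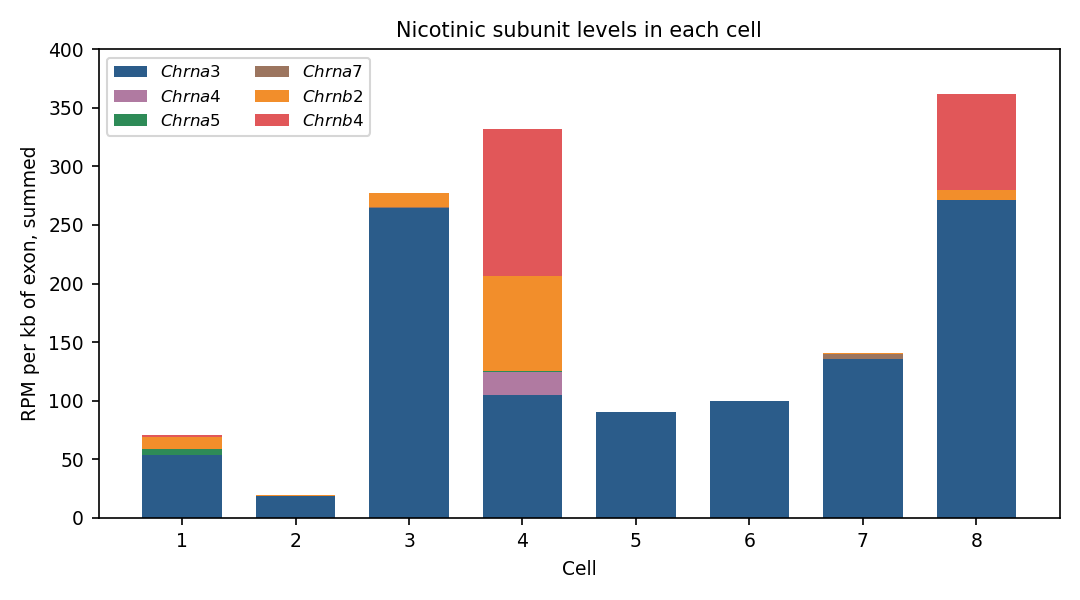
Stacked levels of the 6 nicotinic subunit genes in RPM per kb of exon (vertical axis) in each cell (horizontal axis). Cells 5 and 6 show Chrna3 alone, and in cell 4 Chrnb2 and Chrnb4 together exceed Chrna3.

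Chrna5, Chrna3 and Chrnb4 lie side by side on chromosome 9 of mm10, a cluster conserved in mammals. By GENCODE M21, Chrna5 runs from 54980880 to 55007779 on the plus strand, Chrna3 from 55010111 to 55026562 on the minus strand and Chrnb4 from 55028154 to 55048779 on the minus strand. Gaps of 2331 and 1591 bases separate them. Only cell 1 had all 3 at 1 RPM or more. Cells 4 and 8 had Chrna3 with Chrnb4, and the other 5 cells had Chrna3 with both neighbours under 1 RPM. Of the genes listed as its neighbours, Psma4, a proteasome subunit, had 3.01 to 102 RPM and Ireb2, an iron-regulatory protein, 12.6 to 874 RPM, both with reads in 8 of 8 cells. Hykk was detected in no cell. Adamts7 and Morf4l1, listed as well, lie on the same chromosome far from the cluster in mm10, at 90163069 to 90208071 and at 90091665 to 90114774, and were detected in no cell and in 4 cells.

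Ache, which ends the acetylcholine signal, stood at 314, 49.5, 446, 0, 34.6, 0.565, 702 and 17.8 RPM in cells 1 to 8. Cells 1, 3 and 7 were at 314 RPM or more, cells 2, 5 and 8 at 49.5 RPM or less, and cell 6 held 4 reads. Cell 4 held 0 reads, which allows up to 0.607 RPM. The median was 42.1 RPM (SD 3.58 log2 units, n = 8 cells), and 49.5 RPM without cell 4. Of genes detected in at least 6 cells, 90.6% had a smaller SD, though that set was not matched for cells with 0 reads. Bche, the related butyrylcholinesterase, had 5 reads in cell 8 and 0 in the other 7. Per kb, Ache was 35.9-fold above Bche in cell 8 and higher in all 7 cells with more than 3 reads of either, by a median of 6.20 log2 units (SD 3.19). Colq and Prima1, the anchors that tie the esterase to matrix and membrane, had 0 reads in every cell, as had 51.7% of all symbols.

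In order of the median level per kb, Chrna3 came first at 103, followed by Ache at 9.10 and Chrnb2 at 4.28, with Chrnb4 and the other members at or near 0. Without cell 2 or without cell 7 the order of Ache and Chrnb2 was reversed, with Chrnb2 at 8.05 and Ache at 7.49. Chrna3 lay above Ache in 6 of 8 cells and below it in cells 1 and 7. Ache lay above Chrnb2 in 6 cells and below it in 2. The ranges over cells overlapped for both pairs of neighbours, 19.0 to 272 for Chrna3, 0 to 152 for Ache and 0 to 81.5 for Chrnb2.

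Genes for making acetylcholine gave no reads. Chat, the synthetic enzyme (chromosome 14, 32408203 to 32465989, minus strand), Slc18a3, the vesicular acetylcholine transporter (chromosome 14, 32462438 to 32464850, minus strand, within the span of Chat), and Slc5a7, the choline transporter (chromosome 17, 54273590 to 54299034, minus strand), had 0 reads in all 8 cells. Together the cells held 69360751 reads, so that 0 reads of a gene allow up to 0.0433 RPM over all of them. Of all symbols, 51.7% had 0 reads in every cell. The absence of reads does not show that these RNAs were absent, since a transcript can be lost before amplification.

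Among catecholamine genes, Th was set beside Chat and Slc18a2 beside Slc18a3, and no counterpart of Slc5a7 was compared. Th was detected in 8 of 8 cells and Slc18a2 in 7. Th, for which the cells were picked and which makes the precursor of dopamine, was at least 3190-fold above Chat per kb in cell 4 and at least 32800-fold in cell 2, the lowest and highest of the bounds. Since the cells were picked for Th, this direction was set beforehand. Slc18a2, the vesicular monoamine transporter, stood at 1024, 227, 2564, 2366, 676, 1976, 0 and 164 RPM in cells 1 to 8. Per kb it was at least 174-fold above Slc18a3 in cell 8 and at least 2150-fold in cell 6, the lowest and highest bounds over the 7 cells that held it. In cell 7 all 8 vesicular transmitter transporters examined, Slc18a1, Slc18a2, Slc18a3, Slc17a6, Slc17a7, Slc17a8, Slc17a9 and Slc32a1, had 0 reads. Of these 8 only Slc18a2 and Slc18a1, another monoamine transporter, were detected in any cell.

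**Figure D3:**
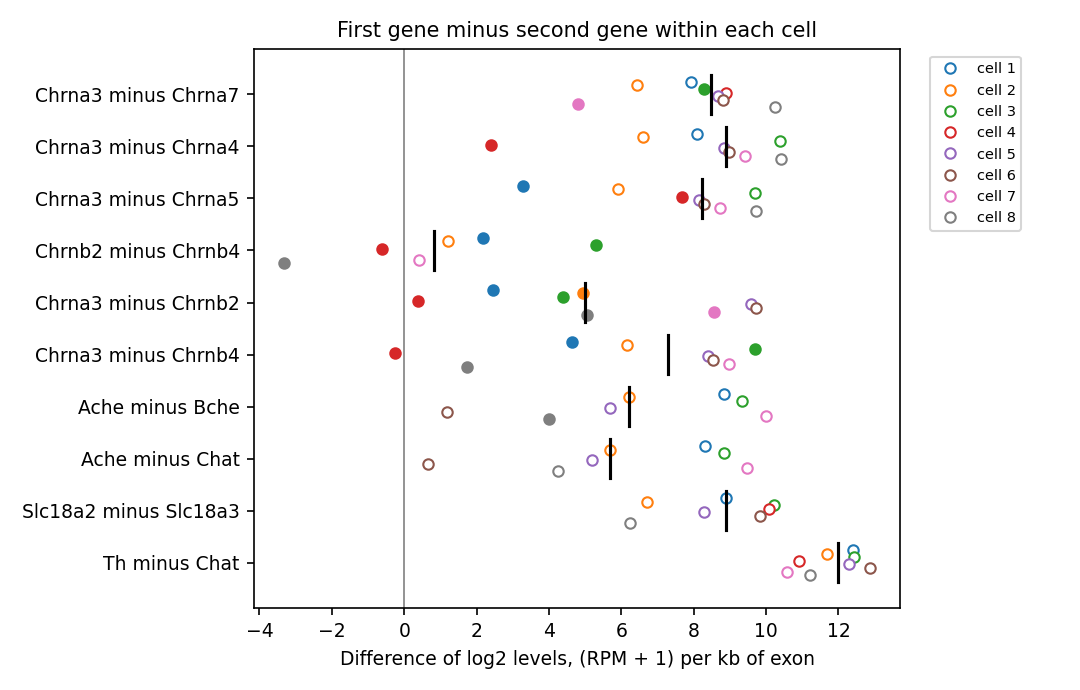
Difference of log2 levels, (RPM + 1) per kb, between the genes of each pair (vertical axis) within each cell, coloured by cell, with a bar at the median. Open circles mark cells in which 1 gene of the pair had 0 reads, where the pseudocount sets the value. Points right of 0 have the first gene higher, and Chrnb2 minus Chrnb4 falls on both sides.

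The sequence before the start of a member found in every cell is set beside that of a member found in none. All 10 members had entries among the promoter sequences from RefSeq (GRCm38.p6), and 250 bases before the start are given for Chrna3 and Slc5a7, both free of annotated exons. Capitals mark matches to the GC box GGGCGG on either strand.
Chrna3, chr9:55026563-55026812, minus strand: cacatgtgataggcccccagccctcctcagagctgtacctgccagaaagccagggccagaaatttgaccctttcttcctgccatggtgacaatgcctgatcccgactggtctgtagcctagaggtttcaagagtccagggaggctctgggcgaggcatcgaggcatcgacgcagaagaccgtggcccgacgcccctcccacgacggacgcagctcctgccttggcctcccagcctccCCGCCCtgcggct
Slc5a7, chr17:54299035-54299284, minus strand: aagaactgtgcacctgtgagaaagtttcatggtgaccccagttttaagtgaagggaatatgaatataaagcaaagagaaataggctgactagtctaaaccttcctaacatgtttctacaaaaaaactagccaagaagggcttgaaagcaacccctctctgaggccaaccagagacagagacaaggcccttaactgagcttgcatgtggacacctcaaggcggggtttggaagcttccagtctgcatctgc

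The Chrna3 stretch held 1 GC box and 13 CpG dinucleotides, and the Slc5a7 stretch 0 and 1. Of 32851 promoter entries 32.7% held a GC box in these 250 bases, and the median was 6 CpG. Neither held the E-box CAGCTG, its own reverse complement, which 13.0% of the entries held. These counts did not follow the levels across members, as Slc18a3, with 0 reads, had 2 GC boxes and 21 CpG, and Chrnb2 had 0 GC boxes and 10 CpG.

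Other receptors for acetylcholine were scarce. The 10 nicotinic subunit genes outside the members, Chrna1, Chrna2, Chrna6, Chrna9, Chrna10, Chrnb1, Chrnb3, Chrnd, Chrne and Chrng, had 0 reads in all cells, where 51.7% of all symbols did. Among these are the subunits of the muscle receptor. Members and lists were chosen with earlier results of these data known, so the split between members and this list may itself follow the reads. Of the 5 muscarinic receptors, G protein-coupled receptors for acetylcholine, Chrm1 was detected in cell 7 alone at 433 RPM and Chrm3 in cell 8 alone at 1.60 RPM. Both were named after their values were seen. Cell 7, with Chrm1, was also the cell with the highest Chrna7 and the highest Ache. It had the highest level of genes outside this family too, among them Ddc, Chgb and Ireb2. The share of all genes with their highest level in cell 7 was not counted, and a link between these genes was not tested.

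Of 9 genes for receptor assembly and for Ly6 proteins, some of which bind nicotinic receptors, 3 were detected in at least 4 cells, as were 24.7% of all symbols. Ly6h, a neuronal Ly6 protein, stood at 2607, 525, 1810, 1.82, 1151, 858, 232 and 292 RPM in cells 1 to 8, with cell 4 far below the rest. Without cell 4 it ranged from 232 to 2607 RPM. Ric3, a chaperone of nicotinic receptors best known for Chrna7, had 22.2 to 566 RPM in 6 cells and 0 reads in cells 4 and 6. Cells 3 and 7, which held Chrna7, had 98.7 and 318 RPM of Ric3, but 4 cells without Chrna7 held Ric3 as well. Rer1, a retention factor of the early secretory pathway, passed the limit in 5 cells, with a median level of 5.66 RPM. Of the 5 genes of the muscle endplate list, 1 was detected in at least 4 cells, where 24.7% of all symbols were. It was Agrn, which clusters receptors at the nerve-muscle synapse, with 69.4 to 1007 RPM in 7 cells. Musk and Dok7 had 0 reads in every cell, as had 51.7% of all symbols.

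Of 10 listed genes of choline handling, 6 were detected in at least 4 cells, as were 24.7% of all symbols. Acly, which supplies cytosolic acetyl-CoA for lipid and acetylcholine synthesis alike, stood at 251, 8.01, 770, 414, 80.2, 288, 667 and 607 RPM in cells 1 to 8. It was lowest in cell 2, as was Chrna3. Slc44a2, a choline transporter-like protein, had 1.52 to 548 RPM in 7 cells, Chkb, a choline kinase, 12.3 to 310 RPM in 6, and Pcyt1a, of phosphatidylcholine synthesis, 4.86 to 111 RPM in 5. These genes serve lipid metabolism widely and are no markers of cholinergic cells.

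Transcription factors and receptors linked to cholinergic fate were mixed. Isl1, a factor of autonomic and other neurons, was detected in 8 of 8 cells at 53.6 to 1110 RPM, lowest in cell 5 and highest in cell 4. Lhx8, Lhx3, Mnx1, Gbx1 and Tlx3 had 0 reads in every cell, as had 51.7% of all symbols. Hmx1, named after its values were seen, was at 92.0 RPM in cell 4 alone. Of 6 receptors of the switch by which sympathetic neurons become cholinergic, 2 were detected in at least 4 cells, where 24.7% of all symbols were. They were the cytokine receptor genes Lifr, at 10.9 to 326 RPM in 5 cells, and Cntfr, at 2.54 to 331 RPM in 5. Lifr was highest in cell 4 and ranged up to 123 RPM without it. Of 6 reported regulators of the chromosome 9 cluster, 2 passed the limit in at least 4 cells, where 24.7% of all symbols did. They were Jun, in 7 cells at 14.9 to 1255 RPM, and Sp1, in 5. Sp1 stood at 166 to 202 RPM in cells 1, 2, 4 and 7, at 5.37 RPM in cell 8 and at 1 read or fewer in the others. Its median of 85.9 RPM fell to 5.37 RPM without cell 4, and likewise without cell 2. Both Jun and Sp1 had 0 reads in cell 3, with the second-highest Chrna3. In cell 8, with the highest, Jun stood at 97.1 RPM and Sp1 at 5.37 RPM. The part of either factor in the level of Chrna3 was not tested.

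**Figure D4:**
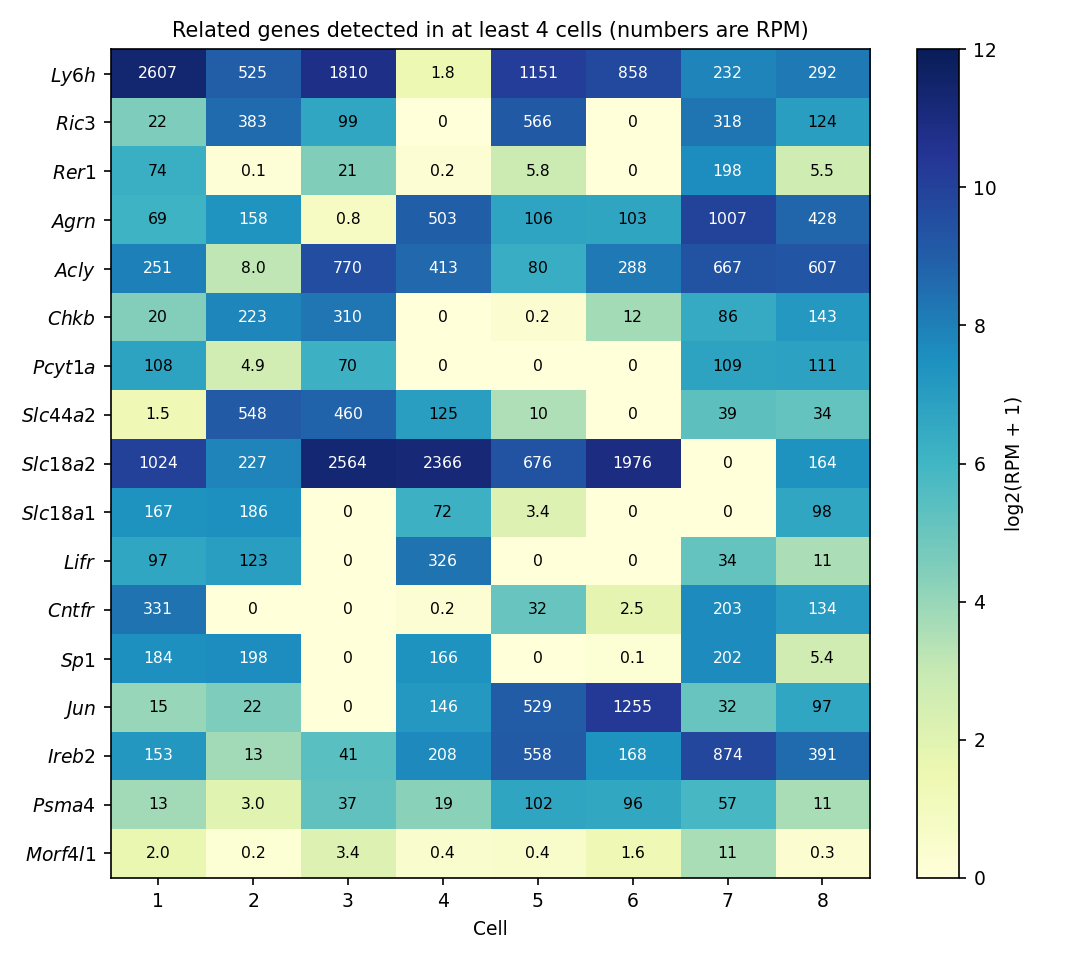
Level of the related genes that were detected in at least 4 cells (vertical axis), up to 4 for each list and without the list of cholinergic fate factors, in each cell (horizontal axis). Colour is log2(RPM + 1) and numbers are RPM. Ly6h falls to 1.82 RPM in cell 4, while Acly and Ireb2 are above 0 in every cell.

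The genes whose level followed each widely detected member most closely over the 8 cells were ranked by Pearson's r of log2(RPM + 1) among 5936 genes detected in at least 4 cells. The points share the depth and yield of each cell, and the genes were selected as the highest of all those compared, so the values are descriptions. For Chrna3 they were Mtpn (0.907), a small actin-capping regulator, Acly (0.882) and Itgb1 (0.878), an integrin subunit. For Chrnb2 they were Mrpl41 (0.971), a mitochondrial ribosomal protein, Sec61a2 (0.969), a translocon subunit, and Rnf157 (0.967). For Ache they were Tmbim6 (0.967), Atp1b3 (0.946), a sodium pump subunit, and Hagh (0.946). Without cell 4 the 9 values lay between 0.890 and 0.969. Values without cell 2, where Chrna3 and Acly were both lowest, were not computed, so how far the likeness to Chrna3 rests on that cell was not tested. For Chrnb2, whose level in cells 2 and 7 is uncertain because of Adar, values without these cells were not computed. Chrnb2, Mrpl41, Sec61a2 and Rnf157 each had a lowest level of 0 RPM, and the part of such cells in their likeness was not tested.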

How the data were processed

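Single-cell RNA was reverse transcribed, amplified by PCR and made into a transposase-based library, per the labels' protocols, and aligned with Bowtie to mm10, per the submitters' processing notes. The authors deposited a raw read count and RPM for 24060 symbols in each of 8 cells, per the file headers. RPM was recomputed from the count and the cell's total, and matched the deposited value. For the counter, its annotation, strand and reads with several matches, the sources used here give nothing.

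Levels are RPM, log2(RPM + 1), or RPM per kb of the union of exons in GENCODE M21 (mm10). Related genes were compared within each cell in which either had more than 3 reads. Intervals are exact Poisson or exact binomial (95%, scipy 1.17.1). Transcript copies were searched with blastn 2.17.0 (at least 95% identity over 50 bases). The ranking of alike genes was run on simulated counts in which alike genes had been planted. The simulation left out loss of transcripts before amplification, so it checks the calculation and not the genes named. Members and lists were chosen with earlier results of these data known. Beyond members and pairs, the text names up to 4 genes of each list with the highest median among those detected in at least 4 cells, the 3 genes most alike to each member detected in at least 6 cells, and markers. Other genes were named after their values were seen, or to state which listed genes had no reads. Agphd1 was not among the symbols. Some genes of 1 list are not reported here. With 1 sample there are no p-values, and Dixon's limit only marks cells far from the rest. Alternatives were another detection limit, pseudocount, length or scaling, and leaving out each cell.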

Additional observations from a re-analysis of the deposited data

Results flagged for a closer look

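Of 13 sets of values over the 8 cells, for the members with reads and for the pairs with a value in every cell, 3 had a cell whose gap to the nearest other cell passed the 95% limit of Dixon's test. Chance passes it in about 5% of groups. They were Chrna4 in cell 4 at 99.3 RPM, Chrna5 in cell 1 at 16.4 RPM and Chrna7 in cell 7 at 21.0 RPM. All 3 are alpha subunits with 0 reads in at least 6 cells, so that a single cell with reads is far from the rest.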

How the results depend on the processing

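No median difference between related genes changed direction under another pseudocount, length, scaling or with any 1 cell left out. With a pseudocount of 0.1 RPM the median differences were 11.62 for Chrna3 minus Chrna7, 12.22 for Chrna3 minus Chrna4, 11.54 for Chrna3 minus Chrna5, 9.50 for Ache minus Bche, 8.98 for Ache minus Chat, 12.21 for Slc18a2 minus Slc18a3 and 15.30 log2 units for Th minus Chat, larger than with 1 RPM because the second gene was mostly at 0 reads. Chrnb2 minus Chrnb4 went from 0.81 to 2.78 with this pseudocount. With 1 RPM and without cells 2 and 7, an alternative chosen after seeing the data, it was 0.78. With no length Th minus Chat was 10.99. Without cell 2, asking for at least 6 of the 7 cells left 1 member, an alternative also chosen after seeing the data. At 10 RPM, more than 3 reads, 1 read or size factors, the number of members detected in at least 6 cells stayed within 1.5 times the 3 reported. No paired analysis was possible because the labels name 1 group. Depth limits what 0 reads can show to 0.0993 RPM in cell 2 and 0.758 RPM in cell 1.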
